A study of Mus musculus with 11 samples.

Results

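The genes described here are 10 contractile genes of smooth muscle and myofibroblasts: Acta2, Actg2, Myh11, Des, Cnn1, Tagln, Lmod1, Mylk, Smtn and Synm. They were chosen by name, with earlier results of these data known. Each was read from the probe set that carries its symbol alone, and where a gene has several such probe sets, from the one with the highest mean over all arrays. All 10 were found, each with 1 probe set, among the 19938 genes of 11 mouse stomach samples, each run on 1 Affymetrix array. NGE stands for 4 samples of normal gastric epithelium, taken from Pdx1-1-Cre-negative mice. The group pChePS_GC held diffuse-type gastric cancer tissues of mice that carry Pdx-1-Cre with Cdh1F/+, Trp53F/F and Smad4F/F (4 samples). The group pCP_GC held diffuse-type gastric cancer tissues of mice that carry Pdx-1-Cre with Cdh1F/F and Trp53F/F (3 samples). Pdx-1-Cre is a recombinase driven by the promoter of the gut and pancreas gene Pdx1, and F marks an allele flanked by recombination sites. Both tumour groups share the Cre, the floxed Trp53 alleles and at least 1 floxed Cdh1 allele. No treatment was given, and the labels give no age, sex or stomach region and leave unsaid whether each sample is a mouse of its own. P-values therefore measure only the spread among these samples, which may be technical. Values are normalised log2 signals, so a difference of 1 is a doubling.

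Smooth muscle shortens when calcium activates myosin light chain kinase (Mylk), which switches on the smooth muscle myosin heavy chain (Myh11) to pull on filaments of smooth muscle actin (Acta2, Actg2). Calponin (Cnn1), transgelin (Tagln), smoothelin (Smtn) and leiomodin (Lmod1) bind actin filaments, and desmin (Des) and synemin (Synm) build the intermediate filaments that tie the contractile units together. In the stomach these proteins mark the muscle layers, the muscularis mucosae and vessel walls, and a subset of them, Acta2 and Tagln above all, is also made by the myofibroblasts of tumour stroma. Many of these genes are activated by serum response factor (Srf) with its partner myocardin (Myocd), which bind the CArG box in DNA.

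The groups differed in more than these genes. The summed level of 10 gastric epithelial markers, given as their mean per array, was 13.60 to 13.66 in NGE, 10.35 to 12.03 in pChePS_GC and 11.65 to 12.57 in pCP_GC, so these markers were present in every NGE array. The list was not lower in the tumours throughout: 2 of the 10 rose in pChePS_GC and 1 in pCP_GC, and Epcam, a general epithelial marker, read 11.19 to 11.66 in NGE and 11.86 to 12.36 in the tumours. Xist read 11.54 to 12.66 in NGE and 5.57 to 6.02 in all tumour arrays, and the Y-linked Eif2s3y read 4.94 to 5.19 in NGE and 8.08 to 11.09 in the tumours, so sex and tumour cannot be told apart in either comparison with NGE. The labels call the NGE samples epithelium and the tumour samples cancer tissues. The material sampled and tumour therefore cannot be told apart in either comparison with NGE. In bulk tissue, fewer cells of a type and less RNA per cell cannot be told apart either. Replicate 1 of pChePS_GC had the lowest value of its group for all 10 contractile genes. It was also lowest for 9 of 12 fibroblast, 8 of 12 striated muscle and 11 of 17 calcium and contraction genes. The counts were 11 of 23 other contractile, 8 of 14 regulator, 6 of 10 pericyte, 6 of 10 enteric, 5 of 10 epithelial and 4 of 6 endothelial genes. They were 5 of 19 relatives of the 10 genes, 1 of 5 genes of interstitial cells of Cajal, 0 of 4 mesothelial and 0 of 4 sex-linked genes. How often this array was lowest among all genes was not counted. Where the call of a gene whose change is given below differs without this array, that value is given too. Without it, Dpt (1.90, limma adjusted p = 0.00561), Klf7 (0.53, 0.0102) and Popdc2 (0.83, 0.0174) also passed in pChePS_GC against NGE. Muc5ac then passed as lower in pCP_GC against NGE, with its difference of -1.85 unchanged (limma adjusted p = 0.0279). All groups share a spread per gene in the main fit. With only the groups compared, the Muc5ac difference passed too (limma adjusted p = 7.81e-06).

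The promoters are shown because the members moved together and several are known targets of Srf. RefSeq promoter windows (build GRCm38.p6, 250 bases before to 50 after the start site) were at hand for 7 of the 10 genes: Acta2, Des, Cnn1, Lmod1, Mylk, Smtn and Synm. The search was for the CArG box (10 bases, the same on both strands) and for CArG-like boxes with at most 1 G or C in the A/T core of 6 bases. The exact box was in 0 of the 7 windows and in 1.63% of all 32851 windows. A CArG-like box was in 2 of the 7 windows and in 9.98% of all windows. Acta2 held 2 of them, at -84 to -75 and -34 to -25 from the start site, and 0.822% of all windows hold more than 1. Synm held 1, at -239 to -230. The 100 bases that hold these boxes are printed 5′ to 3′, on the minus strand, with the boxes in capitals. The Acta2 stretch is chr19:34255374-34255473 and ends at the base before the start site, and the Synm stretch is chr7:67759893-67759992 and begins 250 bases before it.
Acta2: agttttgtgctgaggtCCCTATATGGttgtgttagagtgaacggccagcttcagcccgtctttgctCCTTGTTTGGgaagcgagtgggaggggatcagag
Synm: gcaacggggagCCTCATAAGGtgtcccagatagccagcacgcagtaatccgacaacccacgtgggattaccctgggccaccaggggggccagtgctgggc
A match describes these letters only. Of the 2 genes with a match, Acta2 had the largest change of the 10 genes against NGE in both tumour groups, and Synm passed the test in neither.

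Of the 10 genes, 8 rose in pChePS_GC against NGE and 8 rose in pCP_GC against NGE, and 0 fell in either (limma, Benjamini-Hochberg adjusted p under 0.05 over 19938 genes). Among all genes, 18.7% rose and 23.4% fell in pChePS_GC, and 20.0% rose and 31.8% fell in pCP_GC. The median change of the 10 genes was 2.57 in pChePS_GC and 2.95 in pCP_GC, beside -0.10 and -0.12 for all genes. At 2-fold or more the counts were 6 and 7, where 6.98% and 8.13% of all genes passed. In each comparison the 8 were all but Lmod1 and Synm, and their tumour arrays lay wholly above the NGE arrays, which held for 17.7% and 24.0% of all genes. For each of them the exact two-sided permutation test of a tumour group against NGE gave p = 0.0286, the smallest it allows. Both comparisons use the same NGE arrays, so they are not independent of each other.

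**Figure D1:**
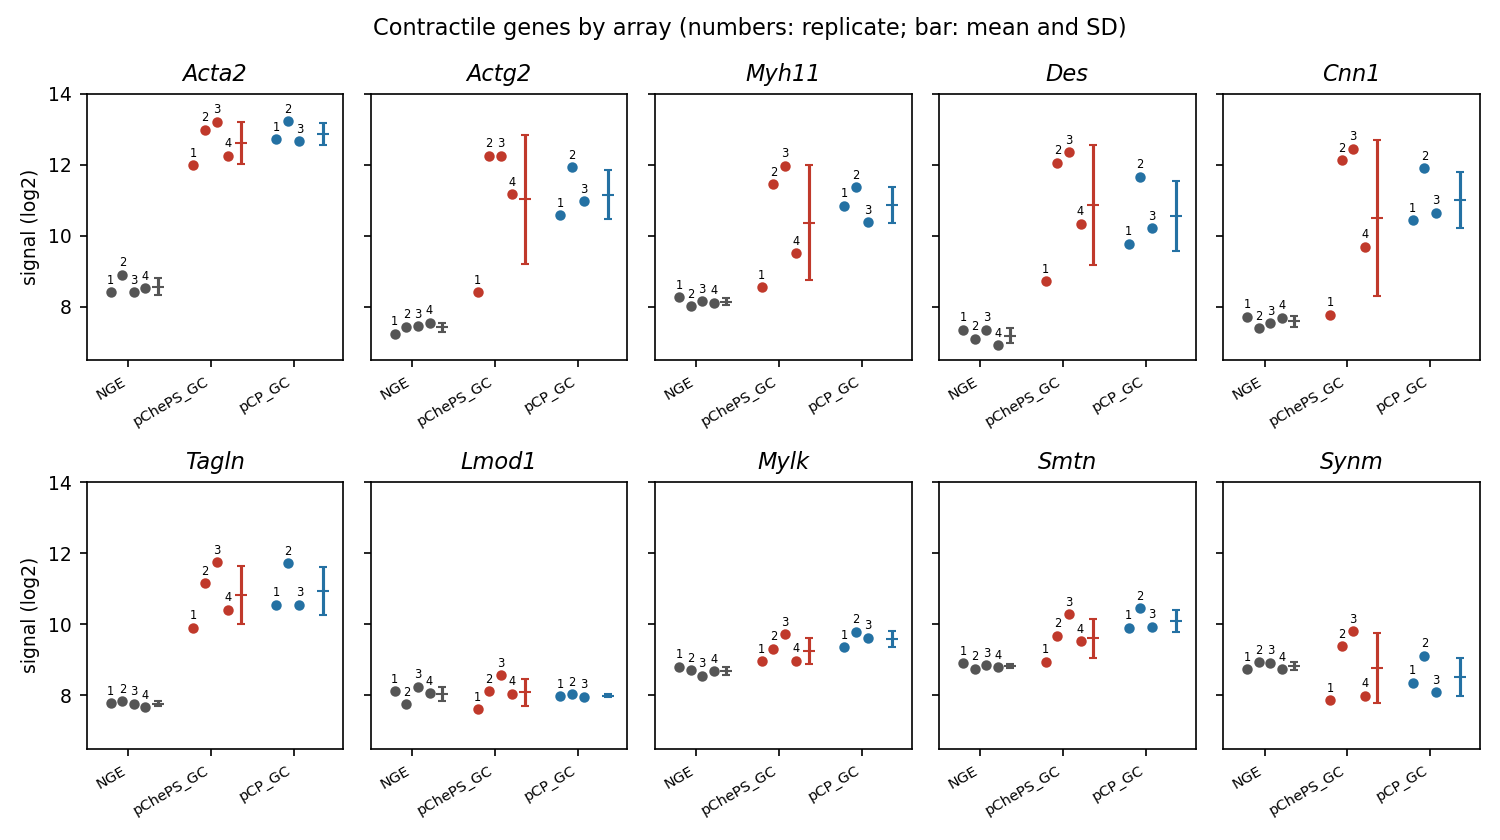
Normalised log2 signal (vertical axis) of the 10 contractile genes in each array of NGE, pChePS_GC and pCP_GC, with replicate numbers above the points and the group mean and SD as a bar. The tumour arrays lie above all NGE arrays for every gene except Lmod1 and Synm, and pChePS_GC replicate 1 is the lowest of its group in each panel.

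Both smooth muscle actins rose. Acta2, the alpha actin of vascular smooth muscle and the usual marker of myofibroblasts, read 8.42, 8.91, 8.41 and 8.53 (NGE), then 11.99, 12.98, 13.21 and 12.25 (pChePS_GC), and 12.71, 13.22 and 12.66 (pCP_GC). Every tumour array was far above every normal array, and the spread within a group stayed small (SD 0.23, 0.58 and 0.31). Acta2 was 16.5-fold higher in pChePS_GC (95% interval 11.1 to 24.4, limma adjusted p = 1.93e-06) and 19.7-fold higher in pCP_GC (12.9 to 30.2, adjusted p = 3.29e-06). Actg2, the gamma actin of visceral smooth muscle, read 7.25, 7.44, 7.46 and 7.56 (NGE), then 8.41, 12.26, 12.25 and 11.16 (pChePS_GC), and 10.58, 11.93 and 10.97 (pCP_GC). Replicate 1 of pChePS_GC lay just above the normal arrays, and the other tumour arrays lay far above them. Actg2 was 12.1-fold higher in pChePS_GC (4.07 to 35.8, adjusted p = 0.00284), 22.0-fold without replicate 1, and 13.3-fold higher in pCP_GC (4.10 to 43.0, adjusted p = 0.00279). The fit shares a spread per gene over all groups, so pCP_GC intervals also depend on the pChePS_GC arrays. Leaving out pChePS_GC replicate 1 kept the pCP_GC difference of Actg2 from NGE and lowered its SE from 0.768 to 0.332.

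The myosin motor and its kinase both rose. Myh11, the smooth muscle myosin heavy chain, read 8.27, 8.02, 8.16 and 8.12 (NGE), then 8.55, 11.45, 11.97 and 9.51 (pChePS_GC), and 10.84, 11.37 and 10.37 (pCP_GC). Replicates 1 and 4 of pChePS_GC were the nearest to normal. Myh11 rose by 2.23 in pChePS_GC (SE 0.622, limma adjusted p = 0.0165) and by 2.72 in pCP_GC (SE 0.671, adjusted p = 0.00681). Without replicate 1 the first of these was 2.83 (adjusted p = 0.00152), a fold of 7.12 in place of 4.68. Mylk, the kinase that activates this myosin, read 8.80, 8.70, 8.55 and 8.68 (NGE), then 8.96, 9.31, 9.73 and 8.98 (pChePS_GC), and 9.35, 9.79 and 9.62 (pCP_GC). It rose by 0.56 in pChePS_GC (adjusted p = 0.0217) and by 0.90 in pCP_GC (adjusted p = 0.00241). The smaller Mylk call was lost with arrays centred on their medians (adjusted p = 0.0535), with quantile normalization (0.153), and without NGE replicate 3 (0.0606), NGE replicate 4 (0.05) or pChePS_GC replicate 2 (0.0524), and over all alternatives it ran from 0.0064 to 0.153.

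Of the actin-binding proteins, Tagln and Cnn1 rose strongly, Smtn rose modestly and Lmod1 passed in neither comparison. Tagln, an early marker of smooth muscle that myofibroblasts also make, read 7.78, 7.84, 7.77 and 7.67 (NGE), then 9.90, 11.16, 11.75 and 10.41 (pChePS_GC), and 10.55, 11.73 and 10.55 (pCP_GC). Its tumour arrays were all at least 9.90, and it was 8.25-fold higher in pChePS_GC (4.67 to 14.6, limma adjusted p = 0.000139) and 9.05-fold higher in pCP_GC (4.89 to 16.7, adjusted p = 0.000197). Cnn1, a calponin that restrains myosin on actin, read 7.72, 7.41, 7.54 and 7.70 (NGE), then 7.78, 12.12, 12.44 and 9.69 (pChePS_GC), and 10.44, 11.91 and 10.65 (pCP_GC). In pChePS_GC, replicate 1 was barely above the highest normal array, while replicates 2 and 3 were far above it. Cnn1 rose by 2.92 in pChePS_GC (SE 0.856, adjusted p = 0.0204) and by 3.41 in pCP_GC (SE 0.925, adjusted p = 0.0108). The pChePS_GC change was 3.83 without replicate 1 (adjusted p = 0.000842), a fold of 14.2 in place of 7.56, and it was 2.27 without replicate 3, where the call was kept. The Cnn1 call was lost without replicate 2 (adjusted p = 0.0576).

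Smtn, a marker of fully contractile smooth muscle, read 8.90, 8.75, 8.85 and 8.80 (NGE), then 8.95, 9.68, 10.28 and 9.52 (pChePS_GC), and 9.91, 10.44 and 9.94 (pCP_GC). It rose by 0.78 in pChePS_GC (limma adjusted p = 0.0213) and by 1.27 in pCP_GC (adjusted p = 0.00224). The Smtn call in pChePS_GC was lost with quantile normalization (adjusted p = 0.089), without NGE replicate 4 (0.0503) and without pChePS_GC replicate 2 (0.0503), and over all alternatives it ran from 0.00257 to 0.089. Lmod1, which seeds actin filaments in smooth muscle, read 8.11, 7.76, 8.25 and 8.06 (NGE), then 7.62, 8.12, 8.56 and 8.05 (pChePS_GC), and 7.99, 8.04 and 7.96 (pCP_GC). These ranges overlap throughout. The Lmod1 difference from NGE was 0.04 in pChePS_GC (95% interval -0.34 to 0.43, adjusted p = 0.849) and -0.05 in pCP_GC (-0.46 to 0.36, adjusted p = 0.839), so this probe set gave no rise of the size seen for Tagln or Cnn1.

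The intermediate filament genes parted. Des, the main intermediate filament protein of muscle, read 7.36, 7.11, 7.36 and 6.93 (NGE), then 8.73, 12.06, 12.35 and 10.34 (pChePS_GC), and 9.78, 11.66 and 10.20 (pCP_GC). All tumour arrays were above the normal ones, by very different amounts. Des was 12.8-fold higher in pChePS_GC (95% interval 4.40 to 37.5, limma adjusted p = 0.00226), 21.1-fold without replicate 1, and 10.3-fold higher in pCP_GC (3.22 to 32.6, adjusted p = 0.00439). Its mean in NGE, 7.19, was lower than the 95th percentile (7.24) of the NGE means of 1190 odorant and pheromone receptor genes, the only member mean to do so in any group, and where that level is background these folds are lower bounds. Synm, which joins desmin filaments to the membrane, read 8.74, 8.93, 8.92 and 8.74 (NGE), then 7.86, 9.39, 9.80 and 7.99 (pChePS_GC), and 8.35, 9.12 and 8.08 (pCP_GC). Replicates 2 and 3 of pChePS_GC and replicate 2 of pCP_GC were above all normal arrays, and the other tumour arrays were below them. The Synm difference was -0.07 in pChePS_GC (-0.97 to 0.83, adjusted p = 0.898), 0.23 without replicate 1 (-0.62 to 1.08), and -0.31 in pCP_GC (-1.28 to 0.66, adjusted p = 0.57).

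**Figure D2:**
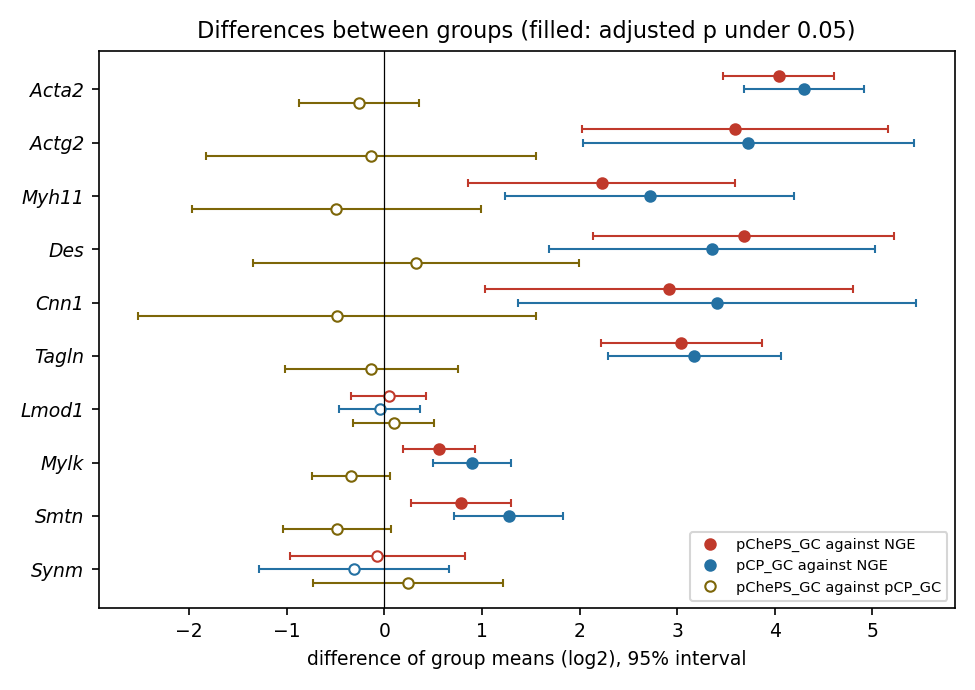
Difference of group means in log2 (horizontal axis) with its 95% interval for the 10 genes in the 3 comparisons, with filled points where the limma adjusted p was under 0.05. Filled points are the 8 genes that rose against NGE in each tumour group, and the points between the tumour groups are all open with intervals that include 0.

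Between the tumour groups 0 of the 10 genes passed, and 0 had an unadjusted p under 0.05, where 0.366% of all genes passed and 16.5% had an unadjusted p under 0.05 (limma). Their median difference, pChePS_GC minus pCP_GC, was -0.20, beside 0.04 for all genes. The difference was -0.26 for Acta2 (95% interval -0.87 to 0.36), -0.13 for Tagln (-1.02 to 0.76), -0.34 for Mylk (-0.74 to 0.06) and -0.49 for Smtn (-1.04 to 0.07). The intervals were wide for Cnn1 (-2.53 to 1.55), Actg2 (-1.83 to 1.56), Des (-1.35 to 1.99) and Myh11 (-1.97 to 0.99), so a difference of 2-fold in either direction was within the error for Cnn1, Actg2 and Des. Without pChePS_GC replicate 1 the difference turned to 0.73 for Actg2 (-0.06 to 1.52), 0.42 for Cnn1 (-0.98 to 1.82), 0.11 for Myh11 and 0.17 for Tagln, and for Des it was 1.04 (-0.18 to 2.26) in place of 0.32. Without pCP_GC replicate 2 it turned to 0.24 for Actg2 (-1.71 to 2.20) and 0.26 for Tagln (-0.63 to 1.15), and was 0.88 for Des (-0.94 to 2.70). With either array left out 0 of the 10 genes passed.

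The spread of these genes within the tumour groups was read as well. In pChePS_GC the mean of the 10 genes was 8.88 in replicate 1, 10.85 in replicate 2, 11.24 in replicate 3 and 9.79 in replicate 4, while the NGE arrays lay between 8.08 and 8.13. Replicate 1 had the lowest value of its group for 10 of 10 genes and replicate 3 the highest for 9 of 10. In pCP_GC the means were 10.05, 10.92 and 10.10, and replicate 2 had the highest value for 10 of 10 genes. The SD in pChePS_GC was above that in NGE for all 10 genes, and in pCP_GC for every gene except Lmod1 (0.04 against 0.21 in NGE). It was widest for Cnn1, at 2.20 in pChePS_GC against 0.15 in NGE and 0.79 in pCP_GC, and narrow for Mylk, at 0.36 against 0.10 and 0.22. Actg2 had an SD of 1.81 in pChePS_GC, 0.13 in NGE and 0.69 in pCP_GC. How many of all genes also spread more widely in the tumours was not counted. The wider spread is therefore not shown to be particular to these genes.

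Replicate 1 was not low for every contractile gene to the same degree. Against the NGE mean it was 3.43 higher for Acta2, which is 10.8-fold, 2.14 higher for Tagln, 1.54 for Des and 0.98 for Actg2. It was 0.41 higher for Myh11, 0.28 for Mylk, 0.19 for Cnn1 and 0.13 for Smtn, and it was below the NGE mean for Lmod1 (-0.42) and Synm (-0.97). Outside the 10 genes, this array read 10.86 for Cald1 (caldesmon) and 11.79 for Flna (filamin A), near the other pChePS_GC arrays. It read 7.31 for Pdlim3 and 6.69 for Pgm5, both proteins of muscle attachment sites. Replicates 2 and 3 of pChePS_GC read 10.46 and 10.90 for Pdlim3 and 10.17 and 11.37 for Pgm5. Replicate 4 was low as well, at 7.72 for Pdlim3 and 7.78 for Pgm5, where the highest NGE arrays read 7.48 and 7.05.

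The marker lists of other cells in replicate 1 are given beside these values. Its fibroblast genes had a median 2.20 above the NGE mean, and pericyte genes 1.13. It read 10.51 for Pdgfrb and 9.68 for Rgs5, against 10.96 to 11.16 and 9.52 to 10.11 in the other pChePS_GC arrays. It was the lowest of its group for 9 of 12 fibroblast genes, and Dpt, a matrix protein of fibroblasts, read 6.04 there and 8.02 to 9.87 in the others. It was the lowest of its group for 5 of 10 epithelial genes, among them Gkn1 (8.51) and Muc5ac (7.44), and in between for the other 5. Of 4 mesothelial genes it was the highest for 2, among them Upk3b (9.48), and in between for the other 2. The part of tissue composition in the low contractile values of this array was not tested.

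**Figure D3:**
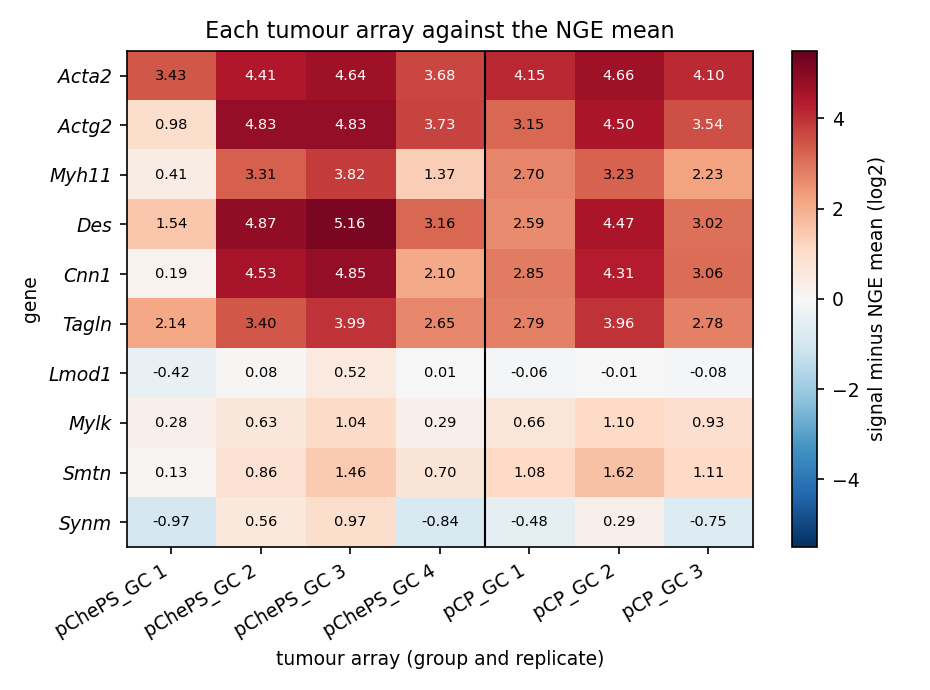
Signal of each tumour array minus the NGE mean in log2 (colour and printed number) for the 10 genes (rows) in the 4 pChePS_GC and 3 pCP_GC arrays (columns). The pChePS_GC replicate 1 column falls from 3.43 for Acta2 to -0.97 for Synm, and the rows of Lmod1, Mylk and Synm stay pale in all arrays.

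With the group means taken off, the 10 genes moved together over the 11 arrays. The 45 pairs had a median Pearson r of 0.879 (0.545 to 0.978), with 17 pairs above 0.9. Each gene's r with the mean of the other 9 ran from 0.78 for Lmod1 to 0.99 for Cnn1. Without pChePS_GC replicate 1 it was 0.52 for Lmod1 and at least 0.86 for the rest. The arrays share an overall scaling, and these values describe the 11 arrays only. Pairs of other genes were not compared, so moving together is not shown to be particular to these genes. Among 18626 other genes the 10 most like the mean of the members were Npc1, Pgm5, Klf7, Kcnd3, Slpi, Cd36, Myl9, Popdc2, Cav1 and Tpm2, with r from 0.96 to 0.98 and from 0.91 to 0.99 without replicate 1. Myl9, the light chain of smooth muscle myosin, Tpm2, a tropomyosin, and Cav1, a coat protein of membrane pits, passed the test as higher against NGE in both tumour groups, Myl9 by 3.08 and 3.43. Mean signals in NGE, pChePS_GC and pCP_GC were 10.73, 10.88 and 10.73 for Npc1, and 7.43, 7.55 and 7.50 for Kcnd3. They were 9.85, 10.21 and 10.19 for Klf7, and 7.14, 7.73 and 7.17 for Popdc2. Cd36, a fatty acid receptor, followed the members within groups but was lower than NGE in both tumour groups, at -3.26 and -3.41. Slpi, a secreted protease inhibitor, rose in pChePS_GC (1.80, adjusted p = 0.0112) and read 0.61 above NGE in pCP_GC (adjusted p = 0.323, and 0.0322 with only the groups compared). Slpi was 1.19 higher in pChePS_GC than in pCP_GC (adjusted p = 0.274), and leaving out pChePS_GC replicate 1 made this 1.73, past the test (adjusted p = 0.0424).

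The rest of the contractile machinery moved less evenly. Of 23 other contractile and attachment genes, 10 rose and 2 fell in pChePS_GC, and 13 rose and 1 fell in pCP_GC, with medians of 0.40 and 0.70. With arrays centred on their medians, which lowered the median of all genes by 0.17 and 0.21, the counts were 7 and 5, then 12 and 5. Cald1, which blocks myosin on thin filaments, read 7.26 to 7.45 in NGE, 10.71 to 11.69 in pChePS_GC and 10.61 to 11.82 in pCP_GC, and rose by 3.81 and 3.67 (limma adjusted p = 4.23e-06 and 1.17e-05). Flna, an actin cross-linker, rose by 3.38 and 3.36, and Actn1, an alpha-actinin, by 1.75 and 1.65. Tpm2 rose by 1.12 and 1.26 (adjusted p = 0.0355 and 0.0235), but the pChePS_GC call was lost in 7 alternatives and the pCP_GC call in 3. Pgm5 was 2.06 higher in pChePS_GC (adjusted p = 0.0643), and 2.83 without replicate 1 (adjusted p = 0.00864). In pCP_GC Pgm5 rose by 2.57 (adjusted p = 0.0322), a call lost in 7 alternatives, among them without pCP_GC replicate 2 (0.105). Itga8, an integrin of smooth muscle and mesenchyme, rose in pCP_GC (1.65, adjusted p = 0.00112) and read 0.28 above NGE in pChePS_GC (adjusted p = 0.397). Its difference between tumour groups was -1.37 (adjusted p = 0.0771), which passed with array weights (-1.67, adjusted p = 0.0106). Leaving out pCP_GC replicate 2 made it -1.80, also past the test, and adjusted p-values over all alternatives ran from 0.00154 there to 0.297.

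Of 17 genes of calcium handling and contraction signalling, 7 rose and 3 fell in pChePS_GC, and 8 rose and 4 fell in pCP_GC. Their medians were 0.17 and 0.08, and centring turned both below 0 (-0.01 and -0.13). Kcnmb1, the beta subunit of the calcium-activated potassium channel of smooth muscle, read 6.53 to 6.79 (NGE), then 7.14, 8.55, 8.79 and 7.93 (pChePS_GC), and 9.88, 9.42 and 9.77 (pCP_GC). It rose by 1.42 and 3.00 (limma adjusted p = 0.00373 and 5.98e-05), and between the tumour groups its difference was -1.59 (adjusted p = 0.0711), which passed in 3 alternatives, among them without pChePS_GC replicate 1 (-1.27, adjusted p = 0.0446). Gucy1b1, a subunit of the nitric oxide receptor cyclase, rose by 1.46 and 1.81, Prkg1, the cGMP-dependent kinase, by 1.16 and 1.17, and Pde5a, which breaks cGMP down, by 0.94 and 1.66. Ppp1r12b, a targeting subunit of myosin phosphatase, fell by 0.64 and fell by 0.68.

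Of 14 transcriptional regulators of smooth muscle and gut mesenchyme, 6 rose and 3 fell in pChePS_GC, and 7 rose and 3 fell in pCP_GC (centred, 5 and 4, then 7 and 4). Myocd, the coactivator that drives the contractile programme, read 7.17, 6.96, 7.06 and 7.14 (NGE), then 7.47, 8.30, 8.26 and 7.18 (pChePS_GC), and 8.37, 8.47 and 8.16 (pCP_GC). It was lowest in pChePS_GC replicates 4 and 1, the same arrays that were low for most of the 10 genes. Myocd rose by 0.72 in pChePS_GC (limma adjusted p = 0.0278) and by 1.25 in pCP_GC (adjusted p = 0.00217), and the first of these calls was lost without any 1 NGE array or without pChePS_GC replicate 2 or 3 (adjusted p = 0.051 to 0.0744). Srf rose by 0.37 (adjusted p = 0.0277) and 0.52 (adjusted p = 0.00654). The Srf call in pChePS_GC was lost in 7 alternatives, among them arrays centred on their medians (0.143), quantile normalization (0.233) and the replicate number as a block (0.0549), and that in pCP_GC with quantile normalization (0.0786). Mrtfb, another Srf partner, rose by 0.78 and 0.77, and its relative Mrtfa fell by 0.55 and fell by 0.57.

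The forkhead factors of gut mesenchyme rose in both groups. Foxf1 read 8.00 to 8.57 (NGE), then 8.91, 9.86, 11.48 and 9.80 (pChePS_GC), and 10.87, 11.08 and 11.03 (pCP_GC), and rose by 1.69 and 2.67 (limma adjusted p = 0.0093 and 0.00102). Foxf2 rose by 1.56 and 2.58 (adjusted p = 0.0219 and 0.00214), the first call being lost without NGE replicate 1, 3 or 4 (0.0503 to 0.051). Foxf2 was highest in pChePS_GC replicate 4 (10.13), an array that was low for most of the 10 genes. Mef2c, a muscle transcription factor, rose by 0.85 and 1.17. Barx1, a homeobox gene of stomach mesenchyme, rose in pCP_GC (1.52, adjusted p = 0.0214) and was 0.81 higher in pChePS_GC (adjusted p = 0.157), and its pCP_GC call was lost without pCP_GC replicate 2 (0.0966), with quantile normalization (0.063) and with the replicate number as a block (0.0505). Its difference between tumour groups was -0.71 (adjusted p = 0.462). Klf4, an epithelial factor that also represses smooth muscle genes, fell by 1.98 and fell by 1.62, and Gata6 fell by 0.73 in both. Nkx3-2, Hey2 and Tbx18 passed in neither comparison, and each passed in 1 alternative. With arrays centred on their medians, Nkx3-2 passed as lower in pCP_GC (-0.33, limma adjusted p = 0.0336). Tbx18 then passed as lower in pChePS_GC (-0.25, adjusted p = 0.0497). Hey2 passed as higher in pChePS_GC with array weights (0.43, adjusted p = 0.048). Heyl did not pass either (0.64 in pChePS_GC, adjusted p = 0.0605), but its pChePS_GC difference passed in 4 alternatives, among them array weights (adjusted p = 0.0234) and the fit that left out pChePS_GC replicate 1 (0.80, adjusted p = 0.031).

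Relatives of the 10 genes were mixed, with 5 of 19 higher and 7 lower in pChePS_GC, and 4 higher and 9 lower in pCP_GC (centred, 5 and 11, then 4 and 11, and with quantile normalization 6 and 7, then 5 and 5). Cnn2, a calponin of non-muscle cells, read 7.61 to 7.98 in NGE, 11.41 to 12.02 in pChePS_GC and 11.69 to 12.21 in pCP_GC, and rose by 3.80 and 4.10 (limma adjusted p = 1.15e-07 and 1.43e-07). Its 4 pChePS_GC arrays, replicate 1 included, lay within 0.61 of each other. Vim (vimentin) rose by 3.99 and 3.84, Myh10, a non-muscle myosin, by 1.32 and 1.49, and Nes (nestin) by 1.08 and 1.47. Myh9, the other non-muscle myosin, rose by 0.40 in pChePS_GC (adjusted p = 0.00559), a call lost with the mean of its probe sets (0.485). The striated actins Acta1 and Actc1 and the cytoplasmic Actb did not pass in pChePS_GC, with differences of 0.16, -0.18 and 0.08. Acta1 passed there without pChePS_GC replicate 1 (0.36, adjusted p = 0.0236), Actb with quantile normalization (0.29, adjusted p = 0.00311), and Actc1 as lower with arrays centred on their medians (-0.36, adjusted p = 0.0421) and with quantile normalization (-0.42, adjusted p = 0.0199). In pCP_GC Actc1 was -0.35 (adjusted p = 0.0376), a call lost in 7 alternatives, and Acta1 and Actb did not pass, though Actb did with quantile normalization (0.28, adjusted p = 0.00536). Relatives found outside muscle also fell. Cnn3, another calponin, was -0.71 in pChePS_GC (adjusted p = 0.00817) and -0.24 in pCP_GC (0.287), and Tagln2 was -0.62 (0.0066) and -0.21 (0.273). Myh14, a non-muscle myosin, was -0.83 in pCP_GC (adjusted p = 0.00627) and -0.34 in pChePS_GC (0.157). Among the paralogues of striated muscle, Lmod2 was -0.36 and -0.54, Mylk2 was -0.45 and -0.56, Mylk3 was -0.25 and -0.38, and Smtnl1 was -0.33 and -0.56, all past the test, though the pChePS_GC calls of Lmod2, Mylk3 and Smtnl1 were lost in 4, 5 and 6 alternatives, among them, for Smtnl1, without pChePS_GC replicate 1 (-0.31, adjusted p = 0.0788).

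Markers of the stroma, vessels and serosa were read beside the 10 genes. Of 12 fibroblast genes 10 rose in each tumour group and 0 fell, with list means of 7.86 to 8.13 in NGE, 9.95 to 11.22 in pChePS_GC and 10.42 to 11.45 in pCP_GC. Dcn (decorin) rose by 4.56 and 5.14, and Postn (periostin) by 4.15 and 4.49. Of 10 pericyte genes 7 rose in pChePS_GC, and 5 rose and 2 fell in pCP_GC (centred, 4 and 3), with list means of 7.50 to 7.69, 8.98 to 9.80 and 8.64 to 9.44. Rgs5, a defining pericyte gene, read 5.93 to 6.31 in NGE, 9.52 to 10.11 in pChePS_GC and 10.08 to 10.66 in pCP_GC, and rose by 3.70 and 4.27 (limma adjusted p = 1.34e-07 and 1.11e-07). Of 6 endothelial genes 5 rose in each group, among them Emcn by 4.36 and 4.42. The mesothelial gene Msln rose by 4.80 and 4.54, while Lrrn4 passed in neither group, Upk3b passed in neither, and Wt1 was 0.19 and -0.39. Fibroblast, pericyte and endothelial genes thus moved with the 10 genes against NGE, and their part in the result was not tested.

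No striated muscle or enteric nerve marker passed as higher. Of 12 striated muscle genes 0 rose and 4 fell in pChePS_GC, and 0 rose and 9 fell in pCP_GC, with list means of 7.41 to 7.73 in NGE, 7.20 to 7.36 in pChePS_GC and 7.06 to 7.18 in pCP_GC. Of 10 genes of enteric neurons and glia 0 rose in either group, and 3 and 5 fell. Their list means were 7.18 to 7.32, 6.98 to 7.40 and 7.05 to 7.21. Of all genes, 18.7% rose and 23.4% fell in pChePS_GC, and 20.0% rose and 31.8% fell in pCP_GC. Both lists lay near the 95th percentile of the odorant and pheromone receptor genes. That level was itself lower in the tumours, at 7.24 in NGE, 6.99 in pChePS_GC and 6.86 in pCP_GC. Its part in these falls, and in those of the striated paralogues above, was not tested. Of 5 genes of interstitial cells of Cajal, the pacemaker cells between the muscle layers, Etv1 rose by 0.66 (limma adjusted p = 0.0228, lost in 6 alternatives) and by 2.02 (adjusted p = 6.22e-05). Kit, their defining receptor, was -0.86 and -0.87 (adjusted p = 0.108 and 0.116), and Ano1, their chloride channel, was 0.63 and 0.66 (adjusted p = 0.0641 and 0.0624). Both passed in some alternatives in each comparison. Kit did so as lower with arrays centred on their medians (limma adjusted p = 0.0421 and 0.0442), and Ano1 as higher with array weights (0.0397 and 0.00403).

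**Figure D4:**
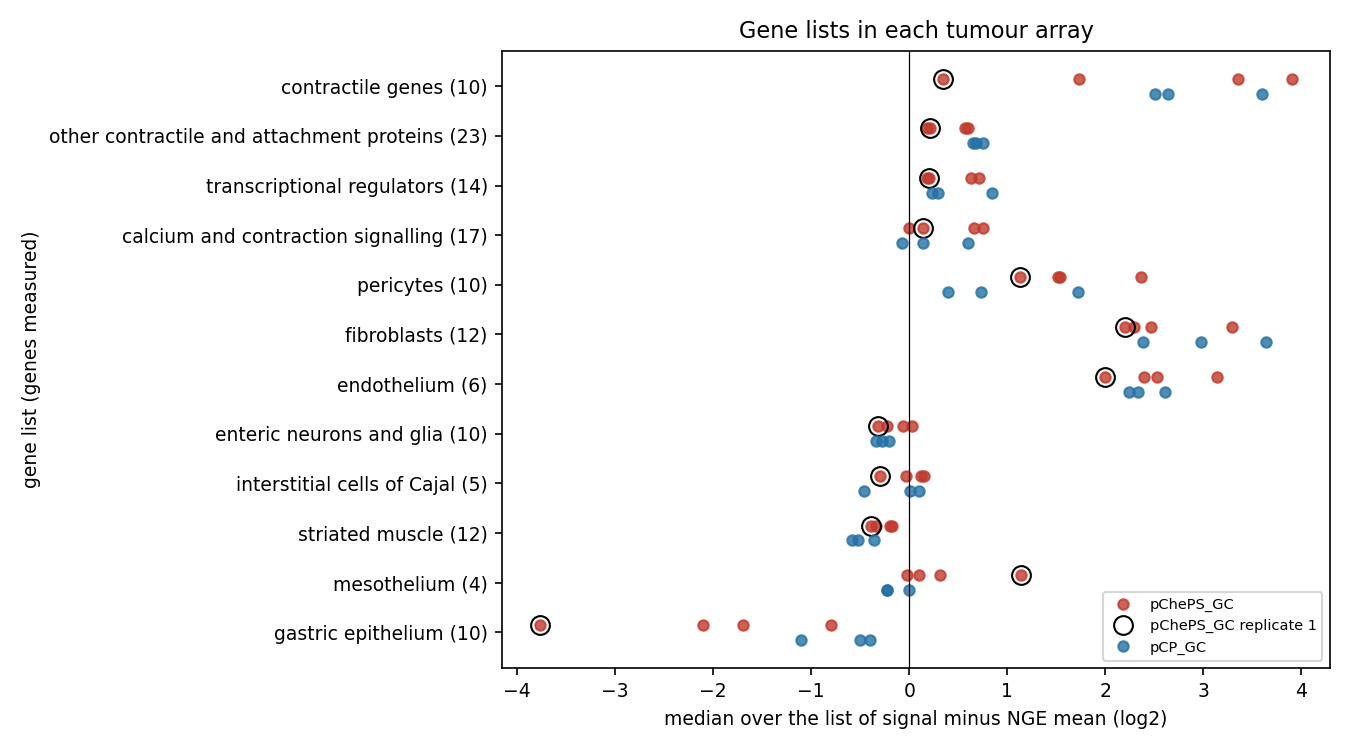
Median over each gene list of the signal minus the NGE mean in log2 (horizontal axis) in each tumour array, with pChePS_GC replicate 1 circled and the number of genes measured in brackets. In that array the contractile genes are at 0.34 and the fibroblast genes at 2.20, while the gastric epithelial genes are at -3.77.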

How the data were processed

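Per the labels, biotin-labelled total RNA was run on Affymetrix arrays. Each array's deposited file column holds a log2 signal per probe set, made by the authors with Affymetrix Expression Console, per the submitters' processing notes. The unit was read from the range (2.88 to 14.6), and the algorithm is not given in the sources used here. Of 35556 probe sets, 21789 carry a single symbol in the platform annotation, which gave 19938 genes. Symbols matched RefSeq genes (GRCm38.p6) for 21698 of them. No dim gene was left out. Array medians ran from 7.63 to 7.81, and precision is limited by how few arrays there are.

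Means of the 3 groups were fitted with limma 3.58.1 (R 4.3.3, lmFit and eBayes) to all 11 arrays, with Benjamini-Hochberg adjustment over all genes. The groups share a spread per gene in this fit, although several genes spread far more in pChePS_GC than in NGE. The fit was tested on simulated data with equal spread in all groups, so that test does not cover unequal spread. Single members also had exact permutation tests. Alternatives changed the variance prior, groups fitted, normalization, dim-gene filter, probe set summary, array weights, replicate block, thresholds and each array left out. The 10 genes and all lists were chosen with earlier results of these data known. Named are the 10 genes, all regulators and relatives, from each other list the 3 genes with the smallest p in each comparison with NGE and the 2 between tumour groups, the 10 most alike genes and those with a value far from its group. Pdlim3 and Gkn1, outside that rule, were chosen after their values were seen. Some listed genes are not reported here.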

Additional observations from a re-analysis of the deposited data

Results flagged for a closer look

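In a group of 4 arrays, 9 values among the named genes lay far from the other 3 by their gap over the group's range, of 202 groups looked at, and chance gives about 1 in 20 groups. None of the 10 contractile genes had such a value. In pChePS_GC, replicate 3 was highest for Hey2 (7.24, the others 6.51 to 6.61) and Mcam (11.59, the others 10.51 to 10.68) and lowest for Myh14 (9.77, the others 10.23 to 10.30). Replicate 1 was lowest for Acta1 (8.45, the others 9.20 to 9.30) and highest for Myh10 (9.50, the others 8.93 to 8.96). Replicate 2 was highest for Actb (14.15, the others 14.07 to 14.08) and Atp4b (8.46, the others 7.50 to 7.54). In NGE, replicate 3 was highest for Myh10 (7.97, the others 7.68 to 7.71) and replicate 4 lowest for Pdgfra (7.08, the others 7.56 to 7.63).

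Etv1 differed between the tumour groups by -1.36 (limma adjusted p = 0.032), with all pChePS_GC arrays below all pCP_GC arrays. This call was lost in 10 alternatives, among them with only the groups compared (adjusted p = 0.239), with the replicate number as a block (0.121), without pChePS_GC replicate 1 (0.0532) and without pCP_GC replicate 1 (0.113).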

How the results depend on the processing

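In pChePS_GC against NGE 8 of the 10 genes passed, and 5 to 8 did so with 1 array left out. The 5 came without pChePS_GC replicate 2, where Cnn1, Mylk and Smtn were lost. At an adjusted p under 0.01 the count was 4, with quantile normalization 6 and with centred arrays 7. In pCP_GC against NGE it was 8 under every alternative except the stricter thresholds, at 7 each, and between tumour groups it was 0 under all. No called gene changed sign. Single calls changed in 9 cases for the 10 genes (all lost), and among other named genes 126 calls were lost and 79 gained. Centring moved the split of all genes from 3728 higher and 4658 lower to 2695 and 9101 in pChePS_GC, and from 3994 and 6343 to 2686 and 9716 in pCP_GC.

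The replicate number as a block gave counts of 8, 8 and 0. Same-numbered arrays correlated at -0.15 to 0.16 in their deviations from the group means. Arrays of different numbers were not compared, so these values cannot tell whether the numbers pair the samples. The number of arrays and unknown background limit dim genes such as Des in NGE.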
